A study of Mus musculus with 96 samples.

Results

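The unfolded protein response genes Hspa5, Hyou1, Dnajb9, Pdia4, Creld2, Herpud1, Sel1l, Xbp1, Ddit3 and Chac1 were followed in gonadal fat and liver of 48 mice. These 10 genes were chosen by name, and every probe that the array's annotation assigns to them was taken. They make up 12 of the 46116 probes and 10 of the 17658 named genes of the array. The mice came from an F2 intercross of M16i x MB2, were 15 weeks old, and each gave 1 fat and 1 liver array. Each tissue had 24 females and 24 males, and 12 mice in each of haplotype classes 1, 2, 3 and 4, with 6 of each sex per class. The labels record no treatment, and they do not say which parental segments a haplotype class carries. The study looked for loci on mouse chromosome 2 that alter transcript levels in an obesity model.

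The unfolded protein response is set off when unfolded proteins build up in the endoplasmic reticulum, the compartment where secreted and membrane proteins fold. Its sensors in the membrane are Ern1 (IRE1), Eif2ak3 (PERK) and Atf6. Active Ern1 splices the mRNA of the transcription factor Xbp1, active Eif2ak3 slows translation and favours the transcription factors Atf4 and Ddit3, and cleaved Atf6 enters the nucleus. Together they raise chaperones, disulfide isomerases and the machinery that removes misfolded proteins. Hepatocytes secrete large amounts of plasma protein and adipocytes secrete hormones, and both cell types depend on this pathway.

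Promoter stretches are shown for the genes whose promoter held a known response element. Any relation of these elements to how the genes varied together was not tested. The sequences are RefSeq's for GRCm38.p6, and 9 of the 10 genes matched a promoter entry by symbol, all but Hyou1. The elements searched on both strands were the endoplasmic reticulum stress element, made of CCAAT and CCACG with 9 bases between them, the second such element, made of ATTGG and CCACG with 1 base between them, the core TGACGTGG of the unfolded protein response element, and the core TGATGCAA of the amino acid response element bound by Atf4 and its partners. Capitals mark the matches, and a match on the other strand reads as the reverse complement.
Hspa5, chr2:34772010-34772058, plus strand: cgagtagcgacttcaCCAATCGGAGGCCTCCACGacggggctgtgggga
Creld2, chr15:88819505-88819553, plus strand: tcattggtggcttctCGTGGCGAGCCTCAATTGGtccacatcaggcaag
Herpud1, chr8:94386302-94386402, plus strand: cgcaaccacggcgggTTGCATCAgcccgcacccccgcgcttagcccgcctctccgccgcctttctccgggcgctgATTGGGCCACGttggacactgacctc
Chac1, chr2:119351034-119351071, plus strand: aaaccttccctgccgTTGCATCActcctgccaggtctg
The first element was found in 2 of the 9 promoters, those of Hspa5 and Creld2, against 0.119% of 32851 mouse promoters of 300 bases. The second was found in Herpud1 only, against 0.0365% of promoters. The amino acid response core lay in the Herpud1 and Chac1 promoters, against 0.895%, and the core TGACGTGG lay in 0 of the 9, against 0.676%. The letters CCACG, which form one end of the first 2 elements and so overlap them, occurred in 7 of the 9 promoters, against 32.8% of all. These are matches of letters in a window and do not show binding.

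Total RNA had been hybridised as labelled cRNA to Illumina bead arrays, and signals were background-corrected, quantile-normalized and put on a log2 scale. Fat arrays detected 6582 to 10002 probes above background and liver arrays 5519 to 9060, and the median raw signal per array was 85.9 to 212.8 in fat and 108.2 to 196.9 in liver. Of the adipocyte markers, 7 of the 7 with a probe were detected on at least 24 of the 48 fat arrays and 0 of the 7 in liver. Of the hepatocyte markers, 7 of the 10 with a probe were so detected in liver and 0 of 10 in fat. Female and male arrays did not overlap at the first of the 2 probes for Xist, the RNA of the inactive X chromosome, in either tissue. Each tissue had 4 scanning days, which entered every test within a tissue, since 55.2% of tested fat probes and 57.3% of tested liver probes differed between days. Within a day each haplotype class held a single sex. Sex differences given by day below are plain differences of means, so on any day sex and class cannot be told apart. The labels number the mice, and within a tissue each array is another mouse.

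Hspa5 (probe 5130671), Hyou1 (3060465), Pdia4 (70100), Creld2 (5670184), Herpud1 (7100440), Xbp1 (3840594), Ddit3 (780373) and Chac1 (7100725) had 1 probe each, and Dnajb9 and Sel1l had 2. Tests within a tissue took the probes with a detection p under 0.01 on 12 or more of its arrays. In fat all 10 genes were tested, with Hspa5, Pdia4, Sel1l and Xbp1 detected on 48 of 48 arrays, Creld2 on 45, Ddit3 and Chac1 on 43, Dnajb9 on 42, Hyou1 on 40 and Herpud1 on 39. In liver 9 were tested, with Hyou1, Pdia4, Creld2, Herpud1, Sel1l and Xbp1 detected on all 48 arrays, Hspa5 and Dnajb9 on 43 and Chac1 on 31. Ddit3 was above background on 5 of the 48 liver arrays and was not tested there. Dnajb9 probe 460114 was above background on 0 fat and 3 liver arrays and was tested in neither tissue, so Dnajb9 rests on probe 102350079. Sel1l probe 103800035 was above background on 12 fat and 7 liver arrays, and probe 3450044 stands for the gene. Probes differ in how brightly they bind, so no level was set against that of another gene.

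One question was whether the sexes differed in liver. Females had lower levels of 5 of the 9 tested genes than males, and 0 were higher. The 5 were Creld2, Hyou1, Pdia4, Xbp1 and Sel1l. Among all 8504 liver probes 34.0% differed between the sexes in limma at an adjusted p under 0.05, with 16.7% higher in females and 17.4% higher in males. In these whole-tissue samples fewer cells of a type and less RNA per cell cannot be told apart.

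Of the chaperones, Hyou1, which exchanges the nucleotide of Hspa5 and helps it release its clients, had a lowest, median and highest level of 6.33, 6.56 and 7.39 in female livers, against 6.46, 7.07 and 7.60 in male livers. Of the females 5 lay below the lowest male and 3 males lay above the highest female. The difference was -0.49 on the log2 scale (SE 0.07, 24 against 24 mice, limma adjusted p = 1.35e-06), and females were lower on 4 of 4 scanning days. It was -0.29 with the deposited values and passed there too. Hspa5, the main chaperone of the compartment, ranged from 6.14 to 10.29 in females, with a median of 7.00, and from 6.08 to 10.65 in males, with a median of 7.24. The sexes overlapped almost throughout, and the difference of -0.43 (SE 0.21) did not pass (limma adjusted p = 0.11). With the number of detected probes as a covariate, chosen after seeing the data, it was -1.01 and passed (adjusted p = 0.000214), with the median raw signal as a covariate it was -0.58 (adjusted p = 0.00701), and without scanning day 6 it was -0.68 (adjusted p = 0.0316). The highest adjusted p over the alternatives was 0.664. Dnajb9, a J-domain partner of Hspa5, had medians of 6.84 in both sexes and a difference of -0.22 (SE 0.14, limma adjusted p = 0.235).

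Among the folding enzymes Creld2, a secretory pathway protein linked to disulfide exchange, had the widest difference of the 9 genes. Its lowest, median and highest levels were 6.66, 7.59 and 10.29 in female livers, against 8.04, 9.38 and 10.95 in male livers. Of the 24 females 18 lay below every male, and 2 males lay above every female. The difference was -1.77 (SE 0.21, limma adjusted p = 5.54e-09), a 3.40-fold lower level, and on the 4 scanning days it lay between -2.25 and -1.43. It was -1.03 with the authors' deposited values and -1.16 without background correction, both of which passed. The disulfide isomerase gene Pdia4 was 8.18, 9.19 and 10.02 in female livers, against 8.90, 9.69 and 10.26 in male livers. Of the females 6 lay below every male. The difference was -0.51 (SE 0.09, limma adjusted p = 3.61e-05), a 1.42-fold lower level, with the same direction on 4 of 4 days.

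Of the removal machinery Sel1l, the adaptor of the ubiquitin ligase Syvn1, had levels of 7.44, 7.79 and 8.32 in female livers, against 7.72, 8.16 and 8.48 in male livers. The groups overlapped, with 5 females below every male and 7 males above every female. The difference of -0.28 (SE 0.07, limma adjusted p = 0.00134) kept its direction on 4 of 4 days but did not pass without scanning day 5 (-0.21, adjusted p = 0.101). It was -0.13 with the deposited values and -0.16 without background correction. Herpud1, a membrane protein that gathers the same ligase complex, had medians of 8.34 in females and 8.39 in males and a difference of 0.08 (SE 0.18, 95% interval -0.28 to 0.44, limma adjusted p = 0.763).

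The transcription factor gene Xbp1 was at 10.75, 11.21 and 11.77 in female livers, against 11.22, 11.59 and 12.16 in male livers. Of the females 12 lay below every male. The difference was -0.42 (SE 0.08, limma adjusted p = 5.25e-05), with 4 of 4 days in that direction. Whether the probe separates spliced from unspliced Xbp1 mRNA is not given in the sources used here. Chac1, which degrades glutathione and is a target of Atf4 and Ddit3, had medians of 6.33 in females and 6.43 in males and a difference of -0.06 (SE 0.06, 95% interval -0.18 to 0.05, limma adjusted p = 0.421).

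**Figure D1:**
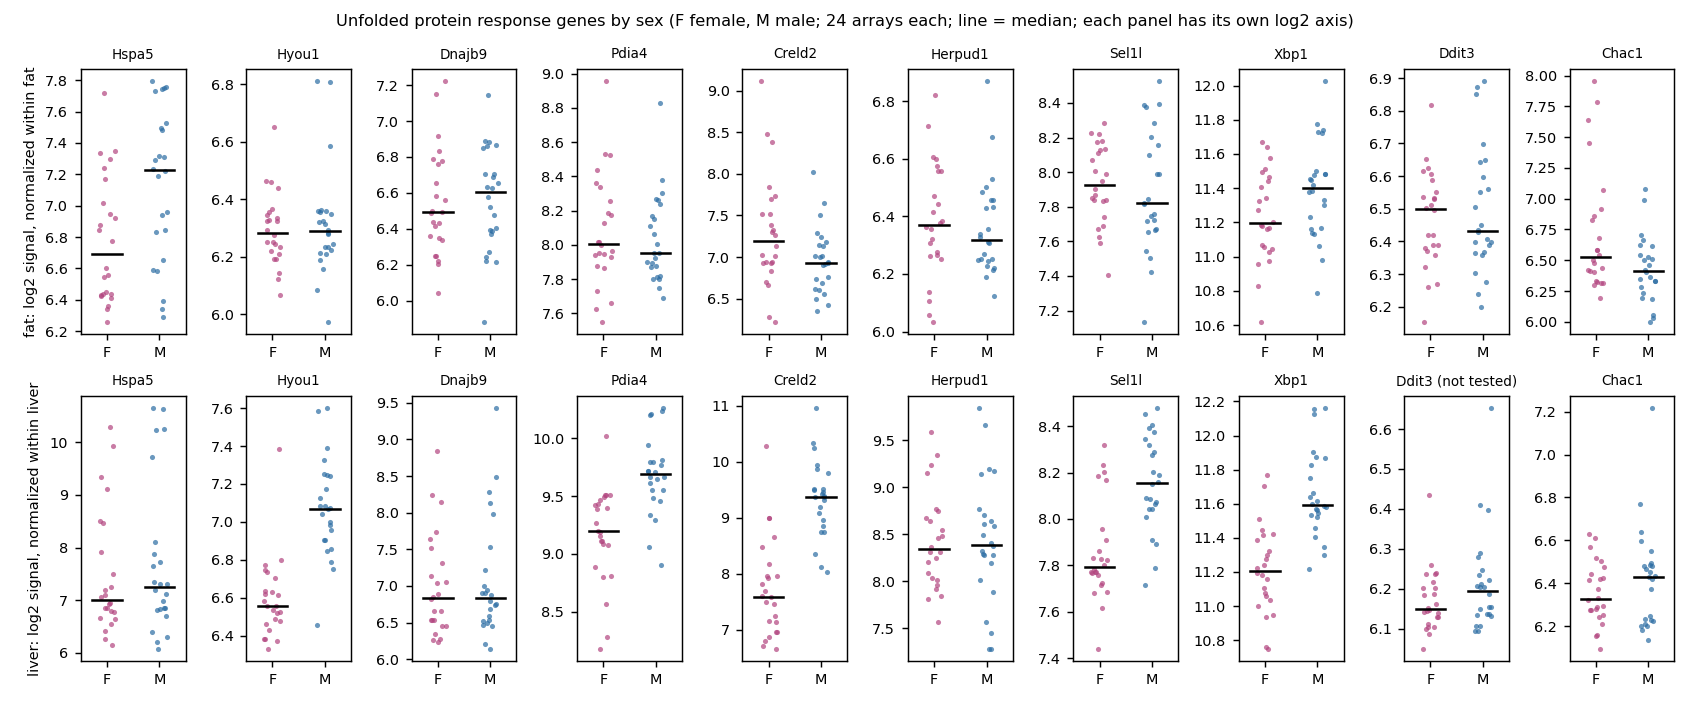
Levels of the 10 genes by sex in fat (top) and liver (bottom), as log2 signals normalized within each tissue. Each point is 1 array, females (F) stand left of males (M), lines are medians of 24 arrays, and each panel has its own axis. In liver 18 of 24 female Creld2 values lie below every male value.

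Cell markers were read beside these sex differences. In liver 4 of 8 tested hepatocyte markers were higher in females and 0 lower, and the summed hepatocyte signal ran from 165357 to 238140 in females and from 150283 to 211310 in males. Of the macrophage markers 3 of 4 tested were higher in females, with a summed signal of 624 to 2176 in females and 469 to 1112 in males. Stromal and endothelial markers had 2 of 4 higher, epithelial markers 1 of 4 higher and 1 lower, and the 1 tested acinar marker was higher. The other 8 acinar markers with a probe were above background on no array of either tissue. The part of these in the sex difference was not tested. Of the 6 B and plasma cell markers with a probe, 5, including Jchain and Tnfrsf17, were above background on no liver array. The count of 5 of 9 genes was unchanged without the 3 liver arrays least correlated with the rest.

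Other genes of the pathway, from lists chosen with earlier results of these data known, were counted in the same liver comparison. Of 14 tested folding genes 10 were lower in females and 0 higher, with a median difference of -0.37, beside -0.0032 over all probes. Fkbp11, a prolyl isomerase of the compartment (-1.58, SE 0.11), Ero1b, an oxidase that recharges disulfide isomerases (-1.18, SE 0.11), Txndc5 (-0.47, SE 0.07) and Erp29 (-0.38, SE 0.06) led them in limma, with adjusted p-values of 2.05e-16, 1.15e-11, 1.12e-06 and 1.65e-06. Among 10 removal genes 6 were lower and 0 higher (median -0.23), including Syvn1 (-1.06, SE 0.15), Edem2 (-0.46, SE 0.06), Selenos (-0.50, SE 0.09) and Vcp (-0.22, SE 0.05). Of 18 genes for translocation and export 14 were lower and 0 higher (median -0.24), among them Sec24d (-0.49, SE 0.09) of the vesicle coat and the channel subunit Sec61b (-0.45, SE 0.08).

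The branch through Atf4 did not follow that direction as a whole. Of its 12 tested genes 5 were lower and 4 higher in females (median -0.024). The amino acid transporter subunit Slc3a2 (0.47, SE 0.06) and the lipoprotein receptor Vldlr (0.63, SE 0.06) were higher, and the tRNA synthetase genes Aars (-0.36, SE 0.07) and Wars (-0.16, SE 0.04) were lower. Of 9 sensors and regulators 3 were lower (median -0.083), namely Atf6b (-0.41, SE 0.07), Eif2ak1 (-0.14, SE 0.05) and Wfs1 (-0.063, SE 0.025). The heat shock genes serve other compartments, most of them the cytosol, and their list also holds the mitochondrial Hspd1 and Hspe1. Of 10 tested, 5 were lower and 0 higher (median -0.27), with Hspb1 at -1.36 (SE 0.17) and Hsp90aa1 at -0.63 (SE 0.19).

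In fat 1 of the 10 genes differed between the sexes, against 22.6% of all 10217 probes, with 12.1% higher in females and 10.5% higher in males. This was Chac1, with levels of 6.20, 6.52 and 7.95 (lowest, median and highest) in female fat, against 6.00, 6.41 and 7.08 in male fat. The groups overlapped, with 4 females above every male and 5 males below every female. The difference was 0.37 (SE 0.12, limma adjusted p = 0.0183), and females were higher on 4 of 4 scanning days, by 0.082 to 0.94. The 0.94 came from day 8, where the 3 females were all of class 3 and the 9 males of the other classes. The call was lost without scanning day 8 (0.17, adjusted p = 0.447), without the filter on detection (adjusted p = 0.0574), with scanning day taken out of the model (adjusted p = 0.054) and with the median raw signal as a covariate (0.31, adjusted p = 0.0725). The other 9 genes had differences between -0.18 (Xbp1, SE 0.08, limma adjusted p = 0.096) and 0.23 (Creld2, SE 0.14, limma adjusted p = 0.232). Hyou1 and Herpud1 lay near background in fat, with mean levels of 6.31 and 6.37. The mean was 6.08 for Dnajb9 probe 460114, above background on 0 fat arrays. A small difference at such levels does not show that the sexes were alike. Without the 3 least correlated fat arrays, Xbp1 also passed (-0.21, adjusted p = 0.0325). With scanning day taken out of the model Hspa5 passed (-0.35, adjusted p = 0.0326), against -0.15 (SE 0.10, limma adjusted p = 0.311) with it.

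Gonadal fat lies beside different organs in females and males, and its markers of other cells differed too. Stromal and endothelial markers were higher in females for 5 of 6 tested genes, with a summed signal of 11833 to 22090 in females and 10426 to 16558 in males. All 3 tested epithelial markers were lower, with sums of 195 to 458 in females and 192 to 2059 in males. Of 7 adipocyte markers 1 was lower and 0 higher, and of 3 mesothelial markers 1 was higher and 0 lower. Of 4 macrophage markers 1 was higher, Mrc1 (0.20), the 1 tested acinar marker, Amy2a5, was higher (0.27), the 1 tested hepatocyte marker, Serpina1a, was lower (-0.30), and of 2 B and plasma cell markers 0 passed. Their part in the sex differences of fat was not tested. Among the pathway lists in fat, 3 of 13 folding genes were higher in females and 1 lower, with Hsp90b1, the lumenal member of the Hsp90 family, at 0.39 (SE 0.08, limma adjusted p = 0.000284). Of 15 genes of the Atf4 branch 4 were lower in females and 1 higher, led by Slc3a2 (-0.41, SE 0.08) and Slc7a5 (-0.33, SE 0.07), the subunits of 1 amino acid transporter. Of 10 removal genes 1 was higher and 1 lower, and of 20 translocation and export genes 3 were higher and 0 lower. Of 10 heat shock genes 1 was lower and 0 higher, and of 8 sensors and regulators 0 passed. Among all fat probes 22.6% were called, and such small counts beside that share are no result about the lists.

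Whether the sex difference itself differed between the tissues was tested directly, as female minus male in fat minus female minus male in liver over all 96 arrays. It passed for 5 of the 10 genes, all in the positive direction, against 27.7% of all probes, with 14.5% positive and 13.2% negative. Creld2 had the largest value at 1.80 (SE 0.24, limma adjusted p = 3.20e-09). Hyou1 had 0.55 (SE 0.09, adjusted p = 2.95e-06), Pdia4 0.47 (SE 0.13, adjusted p = 0.00319), Chac1 0.39 (SE 0.13, adjusted p = 0.017) and Sel1l 0.29 (SE 0.11, adjusted p = 0.0327). Xbp1, lower in female livers and not called in fat, did not pass this test (0.20, SE 0.11, limma adjusted p = 0.179), so its sex difference is not shown to differ between the tissues. Sel1l did not pass without scanning day 2, 4, 5, 6 or 7 (adjusted p up to 0.207), and Chac1 did not pass without day 8 (0.22, adjusted p = 0.249). Neither passed without the filter on detection (adjusted p = 0.107 for Sel1l and 0.0508 for Chac1). With the deposited values the Hyou1 interaction was 0.26, that of Creld2 1.16 and that of Sel1l 0.16, and these passed. With the number of detected probes as a covariate, Hspa5 (0.63, adjusted p = 0.0337) and Dnajb9 (0.46, adjusted p = 0.0394) passed and Sel1l did not (adjusted p = 0.0739). Slc3a2 had the opposite sign (-0.94, SE 0.10), being lower in female fat and higher in female liver.

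The tissues themselves were compared next, with all 96 arrays normalized together, so that levels differ slightly from those above. In limma 7 of the 10 genes were lower in fat than in liver, Ddit3 and Xbp1 were higher, Xbp1 only outside the deposited values, and Chac1 did not pass, against 86.7% of all probes called, with 47.9% higher in fat and 38.8% higher in liver. A count of 9 of 10 is therefore near the share of all probes. Scanning day is nested in tissue, so day and tissue cannot be told apart here.

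Herpud1 had the largest difference. It ran from 6.09 to 6.73 in fat (median 6.32), with 39 of 48 arrays above background, and from 7.56 to 9.82 in liver (median 8.55). All 48 fat arrays lay below every liver array, and the difference was -2.25 (SE 0.08, limma adjusted p = 8.48e-48). Pdia4 was 7.33 to 8.83 in fat (median 7.75) and 8.39 to 10.20 in liver (median 9.49). Of the fat arrays 46 lay below every liver array (-1.61, SE 0.07, limma adjusted p = 2.41e-39). Creld2 was 6.23 to 9.02 in fat (median 6.85) and 6.84 to 10.83 in liver (median 8.84), with 45 of 48 mice higher in liver (-1.68, SE 0.15, limma adjusted p = 8.50e-19).

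The chaperones followed with smaller differences. Hyou1 was higher in the liver of 48 of 48 mice (-0.74, SE 0.05), Dnajb9 in 39 (-0.73, SE 0.12) and Hspa5 in 35 (-0.92, SE 0.19), and Sel1l was higher in the liver of 43 (-0.55, SE 0.05). The second Sel1l probe, near background, gave -0.046 (SE 0.019, limma adjusted p = 0.0173). Hspa5 was 6.26 to 7.56 in fat and spread from 6.00 to 10.55 in liver, so the fat values lay within the liver range. Leaving out 1 scanning day at a time moved the Hspa5 difference between -1.30 and -0.35 and that of Dnajb9 between -0.95 and -0.40.

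The transcription factors had the opposite sign, which Xbp1 lost with the deposited values. Ddit3 was 6.18 to 6.75 in fat (median 6.40) and 5.97 to 6.83 in liver (median 6.11), where 5 of 48 arrays were above background, and 46 of 48 mice had a higher value in fat (0.27, SE 0.03, limma adjusted p = 1.40e-14). The other 43 liver values were not above background, so the size of this difference is uncertain. Xbp1 was 10.75 to 12.25 in fat (median 11.53) and 10.64 to 11.97 in liver (median 11.27), higher in the fat of 36 mice (0.22, SE 0.06, limma adjusted p = 0.000138). With the deposited values the Xbp1 difference was -0.0018 (adjusted p = 0.973), and the median of all probes moved to -0.073, against 0.040 in the main values. The other 8 called differences shrank on that scale too, to -1.37 for Herpud1, -0.17 for Sel1l and 0.093 for Ddit3, and kept their sign and call. Chac1, not called in either, was 0.064 in the main values and -0.042 with the deposited values.

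**Figure D2:**
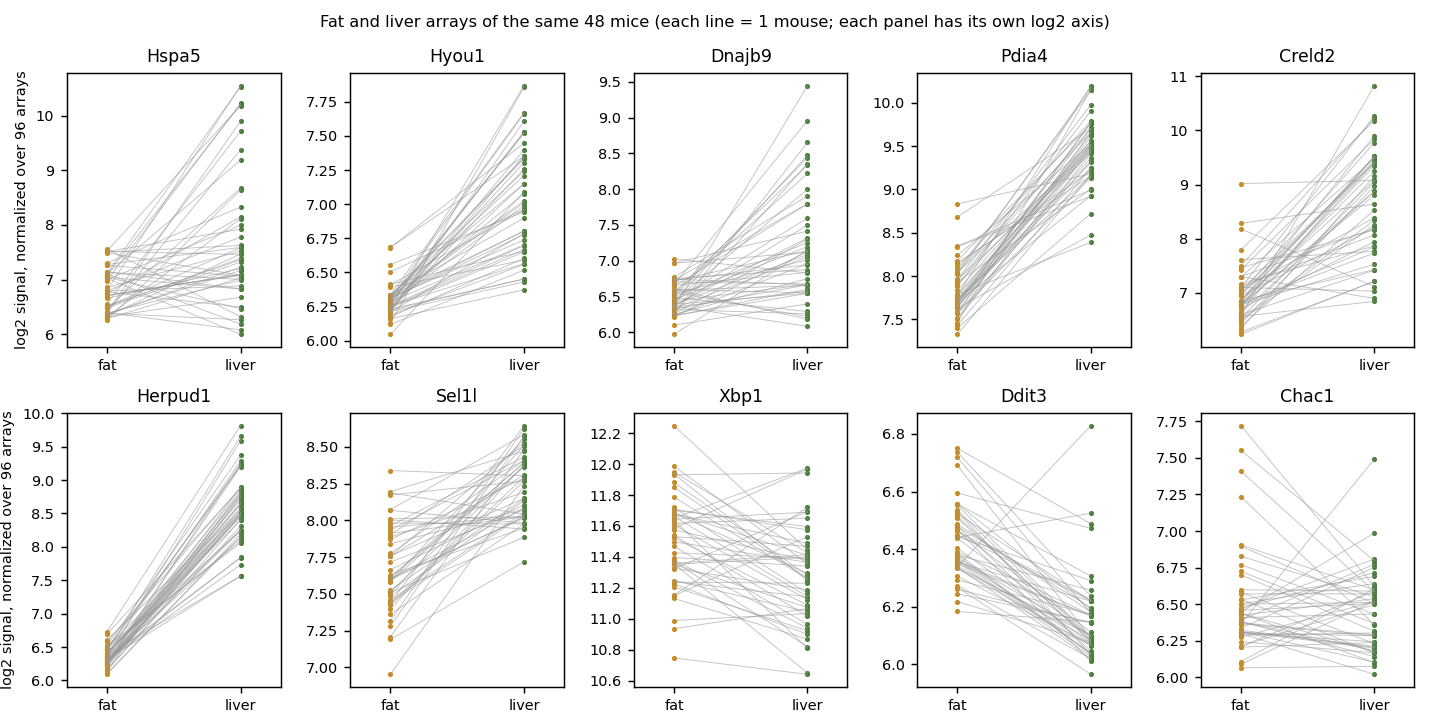
Levels of the 10 genes in fat and liver of 48 mice, as log2 signals normalized over 96 arrays. Each line joins the fat value (left) and the liver value (right) of 1 mouse, and each panel has its own axis. The 48 Herpud1 fat values lie below all 48 liver values, while Hspa5 spreads from 6.00 to 10.55 in liver.

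Of the other lists, 13 of 14 tested folding genes were lower in fat and 1 higher (median -0.87), as were 7 of 10 removal genes, with 2 higher (median -0.52). Over all tested probes the median was 0.040, with 47.9% called higher in fat and 38.8% called higher in liver. Of 20 genes of the Atf4 branch 12 were higher in fat and 8 lower (median 0.29).

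The study's own question was whether transcript levels differed between haplotype classes. For these genes 0 of 10 passed limma's F-test in fat and 0 of 9 in liver, against 0.401% of fat probes and 0.317% of liver probes called. At an unadjusted p under 0.05 there were 1323 fat probes, among them Ddit3 (p = 0.0144, adjusted p = 0.262), and 455 liver probes, among them Creld2 (p = 0.0266, adjusted p = 0.865). The count stayed 0 in both tissues under every alternative tried. Ddit3 in fat had class medians of 6.57, 6.36, 6.44 and 6.42 in classes 1 to 4, with overlapping ranges of 6.24 to 6.87, 6.20 to 6.61, 6.15 to 6.65 and 6.27 to 6.89. Creld2 in liver had class medians of 8.99, 8.66, 8.05 and 8.70, with overlapping ranges of 6.81 to 10.95, 6.97 to 10.34, 6.66 to 9.51 and 6.70 to 9.87. The 95% interval of class 3 minus class 1 was -1.32 to -0.18 for this gene, not adjusted for the number of pairs.

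Hspa5 and Chac1 lie on chromosome 2, the chromosome under study. Hspa5 in fat ran from 6.26 to 7.79 in class 1, 6.34 to 7.52 in class 2, 6.29 to 7.76 in class 3 and 6.34 to 7.48 in class 4. Across the class pairs the 95% intervals of its differences reached from -0.46 to 0.45 in fat and from -0.92 to 0.58 in liver. For Chac1 they reached from -0.51 to 0.47 in fat and from -0.27 to 0.21 in liver. Differences within these bounds, smaller than 2-fold in either tissue, are not shown to be absent. No interaction of sex and class passed for any of the genes, with 0% of all probes called in fat and 0% in liver, against 685 fat probes and 573 liver probes at an unadjusted p under 0.05. Creld2 (p = 0.0274, adjusted p = 0.681) and Herpud1 (p = 0.0372, adjusted p = 0.707) were among the 573. Without scanning day in the model, which is partly tied to this interaction, Dnajb9 (adjusted p = 0.0173) and Hspa5 (adjusted p = 0.0449) passed in liver. The interaction of tissue and class passed for 0 of 10 genes, against 0.179% of all probes and 939 probes at an unadjusted p under 0.05.

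**Figure D3:**
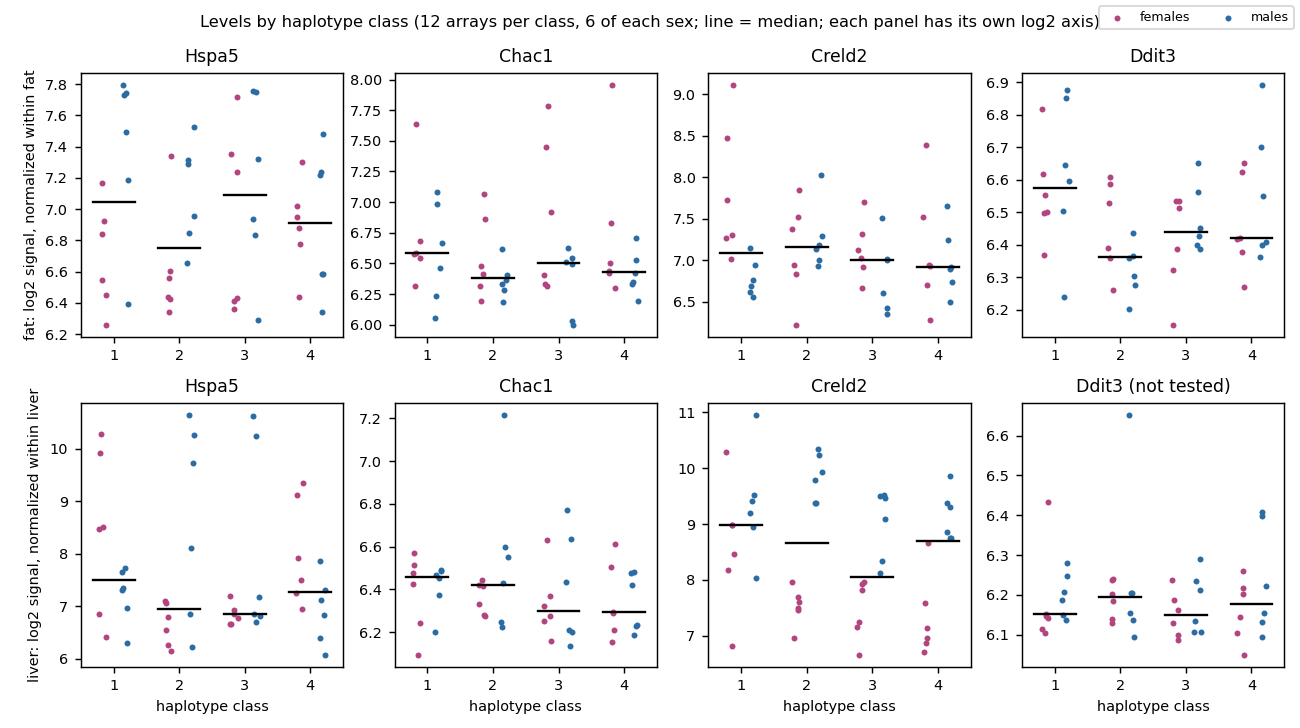
Levels of Hspa5, Chac1, Creld2 and Ddit3 by haplotype class in fat (top) and liver (bottom), as log2 signals normalized within each tissue. Points are arrays, with females to the left of males in each class, and lines are medians of the 12 arrays of a class. The classes overlap in all 8 panels, and Ddit3 was not tested in liver.

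How the genes varied together beyond the additive effects of sex, class and scanning day was examined in each tissue. Interactions of these terms were not removed, and the permutations treated the 48 arrays as independent. Partial Pearson correlations were taken over 48 arrays after sex, class and day had been removed, and limma tested each gene's level as a covariate for all other probes. In liver 26 of the 36 pairs were positive, with a median r of 0.39, and 15 exceeded 0.5. Limma called 16 pairs with each of the 2 genes as the covariate. The same mice, arrays and normalization underlie all 36 pairs, so the pairs are not independent of each other.

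The closest pair in liver was Hyou1 and Pdia4, a chaperone and an isomerase that act in the same lumen. Their r was 0.85 and their rho 0.83 (permutation p = 1e-05 each, the smallest these permutations can give, and 0.000116 and 0.000135 after adjustment over 81 pairs of both tissues). It was 0.80 without the 2 arrays farthest from the Hyou1 median, between 0.49 and 0.94 on the 4 scanning days, 0.84 in females and 0.88 in males. Of the other probes, 0% had a higher r with either gene. Hspa5 and its partner Dnajb9 had an r of 0.77 and a rho of 0.63 (permutation p = 1e-05 each, adjusted p = 0.000116 and 0.000135), with 0.68 without the 2 farthest arrays. That pair ranged from -0.19 to 0.87 across days, with 3 of 4 days positive. Dnajb9 and Creld2 had an r of 0.72 and a rho of 0.71 (permutation p = 1e-05 each), with 0.50 to 0.87 on the 4 days.

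Creld2 also varied with Pdia4 (r = 0.69), Hyou1 (0.67), Sel1l (0.59), Hspa5 (0.56) and Herpud1 (0.53). With Creld2 as the covariate limma called 6 of the 8 other genes, against 3.61% of all liver probes called in that direction. The corresponding counts were 6 of 8 for Dnajb9 (6.77% of probes), 5 of 8 for Hyou1 (4.21%), 5 of 8 for Pdia4 (6.04%), 4 of 8 for Hspa5 (13.7%), 4 of 8 for Sel1l (1.87%) and 2 of 8 for Herpud1 (1.86%). The 2 genes called with Herpud1 were Dnajb9 (r = 0.61) and Creld2. The medians of r over the 8 other genes ran from 0.38 to 0.58 for these 7 covariates, beside -0.070 to 0.0053 over all probes.

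Xbp1 and Chac1 had the lowest median r over the 8 other genes in liver, at -0.055 and 0.047. Their 15 pairs with each other and with the remaining genes had r between -0.18 and 0.20, and limma called 0 of the 8 genes with Xbp1 as the covariate, against 1.86% of probes, and 0 of 8 with Chac1, against 0% and 385 probes at an unadjusted p under 0.05. Counts of 0 of 8 lie near these shares, so they are no result about the 2 genes. Chac1 was above background on 31 of 48 liver arrays. The other 21 pairs were all positive, between 0.16 and 0.85. This split was drawn from the same r values, and its ranges overlap. With both array measures removed as well, the 15 pairs ran from -0.23 to 0.35, and the 21 from 0.34 to 0.78. At an unadjusted p under 0.05, 1802 probes covaried with Xbp1 in either direction.

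**Figure D4:**
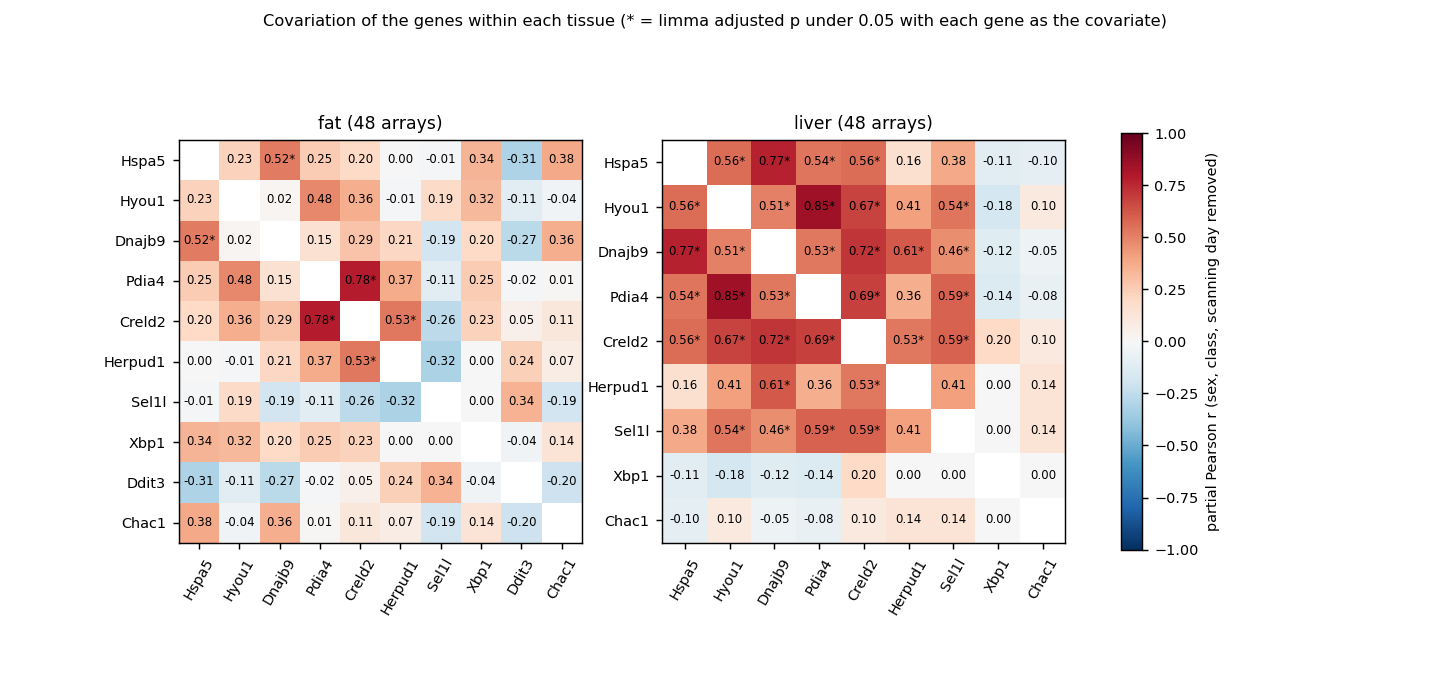
Partial Pearson correlations between the genes over 48 fat arrays (left) and 48 liver arrays (right), with sex, haplotype class and scanning day removed. Red cells are positive and blue cells negative, and asterisks mark pairs that limma called with each gene as the covariate. The liver panel holds 16 marked pairs and the fat panel 3, and the Xbp1 and Chac1 rows of liver lie between -0.18 and 0.20.

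Fat had fewer such pairs. Of 45 pairs 29 were positive, with a median r of 0.14, and limma called 3 with each gene as the covariate. Pdia4 and Creld2 had an r of 0.78 and a rho of 0.71 (permutation p = 1e-05 each, 0.000116 and 0.000135 after adjustment), 0.71 without the 2 farthest arrays and 0.26 to 0.94 on the 4 days. Here too 0% of the other probes had a higher r with either gene. Creld2 and Herpud1 had an r of 0.53 and a rho of 0.48 (permutation p = 0.00017 and 0.00069), with 0.75 in females and 0.10 in males. That difference between the sexes was not tested. The limma call of this pair was lost without scanning day 4 (r = 0.43, adjusted p = 0.25) and with ranks (adjusted p = 0.0583). Hspa5 and Dnajb9 had an r of 0.52 and a rho of 0.53 (permutation p = 0.00019 and 0.00015), positive on 4 of 4 days, and the limma call was lost without scanning day 3 (adjusted p = 0.0535), 4 (0.0574) or 7 (0.172).

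Hyou1 and Pdia4, the closest pair in liver, had an r of 0.48 in fat, positive on 4 of 4 days, with a permutation p of 0.00071 (0.00303 after adjustment over the 81 pairs), and were not called by limma, which adjusts over all probes (adjusted p = 0.123 and 0.0564). With Creld2 as the covariate 2 of 9 genes were called in fat, against 3.78% of probes. The counts were 1 of 9 with Hspa5 (3.95% of probes), Herpud1 (2.54%), Dnajb9 (1.68%) and Pdia4 (1.54%). Limma called 0 of 9 with Sel1l (1.23% of probes, and 1700 at an unadjusted p under 0.05), Xbp1 (0.117%, 1284), Hyou1 (0.0587%, 1199) and Chac1 (0.00979%, 684). Ddit3, tested in fat only, covaried with 0 of the 9 genes, against 0% of probes, with 786 probes at an unadjusted p under 0.05. Its r with Hspa5 was -0.31, which was -0.14 without the 2 farthest arrays. Whether a pair's correlation differs between fat and liver was not tested.

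Markers of cell types moved with some of these genes. Over 80 such relations in fat and 45 in liver, adjusted together, the summed adipocyte signal correlated with Creld2 (r = -0.49, rho = -0.41, permutation p = 0.00035, adjusted p = 0.0109, and -0.39 without the 2 farthest arrays) and with Herpud1 (r = -0.50, rho = -0.48, permutation p = 0.00026, adjusted p = 0.0109). The stromal and endothelial sum correlated with Creld2 (r = 0.45, adjusted permutation p = 0.0242) and the mesothelial sum with Creld2 (r = 0.43, adjusted permutation p = 0.0297) and Pdia4 (r = 0.42, adjusted permutation p = 0.0315). The stromal and endothelial genes were not of 1 direction. With Creld2 as the covariate limma called 1 of the 6 tested positive, Dcn, and 1 negative, with a median r of 0.23. Sel1l moved with the adipocyte sum in the other direction (r = 0.41, adjusted permutation p = 0.0315). Amy2a5, the 1 tested acinar gene, correlated with Herpud1 (r = -0.50, adjusted permutation p = 0.0109) and Creld2 (r = -0.43, adjusted permutation p = 0.0297), and Serpina1a, the 1 hepatocyte gene tested in fat, with Sel1l (r = 0.51, adjusted permutation p = 0.0145). The other 8 acinar markers with a probe were above background on no fat array, so Amy2a5 alone does not show acinar cells. The B and plasma cell sum, made of 2 tested genes, correlated with Creld2 (r = 0.44, adjusted permutation p = 0.0315) and with Dnajb9 (r = 0.40, adjusted permutation p = 0.0479). Without the 2 farthest arrays these were 0.24 and 0.42. By rank neither passed (rho = 0.26 and 0.34, adjusted permutation p = 0.265 and 0.161). Creld2 also did not pass by rank with the mesothelial sum (rho = 0.39, adjusted permutation p = 0.0721) or with Amy2a5 (rho = -0.40, adjusted permutation p = 0.0645). Jchain and Tnfrsf17, both markers of plasma cells, were above background on no fat array. The macrophage sum correlated with Ddit3 (r = 0.43, rho = 0.45, adjusted permutation p = 0.0297). In liver the hepatocyte sum correlated with Hspa5 (r = 0.54, rho = 0.56, adjusted permutation p = 0.00875) and with Xbp1 (r = -0.44, rho = -0.42, adjusted permutation p = 0.0277). With Hspa5 as the covariate limma called 3 of the 8 tested hepatocyte genes positive and 1 negative, with a median r of 0.20. The part of the cell markers in the covariation was not tested.

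Hspa5 in liver moved strongly with scanning day and with array measures. Its mean was 9.44 on day 1 (SD 1.17, n = 12), against 6.60, 7.18 and 7.16 on days 2, 5 and 6, and day differed in limma with an adjusted p of 2.98e-11. The Dnajb9 means followed, with 8.01 on day 1 and 6.51, 6.71 and 6.96 on the other days. Arrays of day 1 had a median of 8419.5 detected probes, against 6647, 7606 and 7584.5. After day, sex and class had been removed, Hspa5 still correlated with the number of detected probes (r = 0.61, rho = 0.50, permutation p = 2e-05) and with the median raw signal (r = 0.63, rho = 0.69, permutation p = 1e-05). In liver the r with the median raw signal also passed for Hyou1 (0.59), Pdia4 (0.54) and Dnajb9 (0.46), with adjusted permutation p-values of 0.00697 or less. It was 0.34 for Creld2 (adjusted permutation p = 0.0748), 0.19 for Sel1l and 0.027 for Herpud1. The part of array quality in the covariation was not tested beyond the following.

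With both array measures removed as well, the 16 called liver pairs had r between 0.37 and 0.78, where they had 0.46 to 0.85 before. Hyou1 and Pdia4 then had 0.78, Hspa5 and Dnajb9 0.71, Dnajb9 and Creld2 0.70, and Dnajb9 and Herpud1 0.73. The count of genes called with Hspa5 fell to 2 of 8 with the median raw signal as a covariate and to 1 of 8 without scanning day in the model. It also fell to 2 of 8 when day 6 was left out. Without day in the model Hspa5 and Pdia4 had an r of -0.32, against 0.54 over 48 arrays with day removed. On single days their r ran from -0.12 to 0.91 and was positive on 3 of 4. The count with Creld2 as the covariate lay between 4 and 6 of 8 over its alternatives, and was 4 without day 6, which lost Hspa5 (r = 0.49) and Herpud1 (r = 0.42). In fat the array measures moved with Hyou1 only after adjustment (r = -0.50 with the number of detected probes, adjusted permutation p = 0.00274).

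Leaving out the 10 genes themselves, the named probes most like Creld2, Hspa5 and Ddit3 were taken by rank of partial r. In liver those with the highest r to Creld2 were Syvn1 (0.92), Entpd7 (0.82), Ero1b (0.82), Gmppa (0.79) and Hsph1 (0.78), over 48 arrays. Syvn1 is the ubiquitin ligase that works with Sel1l, Ero1b recharges disulfide isomerases and Hsph1 is a cytosolic chaperone. In fat they were Stip1 (0.77), Eml1 (0.76), Fkbp11 (0.73), Rpl13a (0.73) and Hsp90b1 (0.72). Stip1 joins the cytosolic chaperones of the Hsp70 and Hsp90 families. All 10 probes were called in limma, with adjusted p-values of 0.000144 or less.

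Those most like Hspa5 in liver were Lrrc59 (0.90), Kti12 (0.90), Nop14 (0.86), Nbr1 (0.86), Mpp6 (0.86), Ndufb4 (0.84), Exoc6 (0.84), Emc7 (0.84), Mrpl20 (0.84) and Paip2 (0.84). In fat they were the ribosomal protein genes Rps6 (0.80) and Rpl21 (0.73), with Ash2l (0.77), Trip12 (0.74), the collagen gene Col3a1 (0.74), Nfkbia (0.74), Hmgb1 (0.73), Ptma (0.73), Ist1 (0.73) and Ugt1a10 (0.72). In fat Ddit3 was most like Rabac1 (0.65), Brk1 (0.60), P2rx4 (0.58), Fam160b1 (0.58) and Mmp3 (0.55), of which limma called none, the lowest adjusted p being 0.0611.

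The lists were read against the same 2 covariates. With Creld2 in liver limma called 3.61% of all probes positive. It called 3 of 14 folding genes, 3 of 10 removal genes and 6 of 18 translocation and export genes. It also called 6 of 10 heat shock genes and 2 of 12 genes of the Atf4 branch. All called genes of these lists were positive. The median r of the lists was 0.28, 0.28, 0.37, 0.51 and 0.045 in that order, beside 0.0053 over all probes. The sensors Eif2ak3 (r = 0.54, limma adjusted p = 0.00675) and Atf6b (r = 0.67, limma adjusted p = 0.000289) were called. With Creld2 in fat 3.78% of all probes were called positive. The counts were 5 of 13 folding, 1 of 10 removal and 5 of 20 translocation and export genes. They were 6 of 10 for heat shock and 0 of 15 for Atf4 branch genes. Hspa8 (r = 0.69) and Hsph1 (r = 0.68), both cytosolic, were among the heat shock genes.

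With Hspa5 in liver, where 13.7% of all probes were called positive and 14.8% negative, limma called 2 of 9 sensors and regulators positive, Ern1 (r = 0.72, limma adjusted p = 2.91e-06) and Eif2ak3 (r = 0.65), and 1 negative. Of 12 genes of the Atf4 branch it called 1, Atf4 itself (r = 0.70). It called 2 of 10 removal genes, among them the conjugating enzyme Ube2j1 (r = 0.83), and 4 of 14 folding genes, led by Erp44 (r = 0.82) and Hsp90b1 (r = 0.82). It also called 9 of 18 translocation and export genes and 6 of 10 heat shock genes, the mitochondrial Hspe1 (r = 0.70) among them. All these were positive. In fat, against 3.95% of all probes, it called 1 of 8 sensors and regulators, Eif2ak3 (r = 0.62, limma adjusted p = 0.00138). It called 3 of 13 folding genes, Erp44 (r = 0.52), Pdia6 (r = 0.51) and Hsp90b1 (r = 0.46). Of the other lists it called 0 of 10 removal genes and 3 of 20 translocation and export genes. It also called 3 of 10 heat shock genes, Hspe1 (r = 0.51) among them, and 0 of 15 genes of the Atf4 branch.

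Both tissues came from the same animals, so fat and liver levels were compared mouse by mouse for the 9 genes tested in both. Sex, class and day were removed within each tissue as additive terms. Mice of a class that shared a fat scanning day, all of a single sex, also shared a liver scanning day. What such a group shared beyond the additive terms was not removed. The permutations treated the 48 mice as independent, so their p-values do not account for it. Xbp1 had an r of 0.45 over 48 mice (permutation p = 0.00109, adjusted p = 0.00981) and a rho of 0.41 (permutation p = 0.00437, adjusted p = 0.0197), and 0.33 without the 2 farthest mice. Chac1 had an r of 0.43 (permutation p = 0.00267, adjusted p = 0.012) and a rho of 0.58 (permutation p = 3e-05, adjusted p = 0.00027), and 0.39 without the 2 farthest. In liver the pairs of these 2 genes had r between -0.18 and 0.20, or between -0.23 and 0.35 with the array measures removed. Herpud1 had an r of 0.37 (permutation p = 0.0101, adjusted p = 0.0303) and a rho of 0.32 that did not pass (adjusted permutation p = 0.0571).

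The other 6 genes did not pass. Their r was 0.28 for Hyou1, 0.23 for Creld2, 0.23 for Pdia4, 0.066 for Dnajb9, 0.058 for Sel1l and -0.085 for Hspa5, with adjusted permutation p-values of 0.127 to 0.696. A p that misses the threshold does not show that the tissues were unrelated for these genes.

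**Figure D5:**
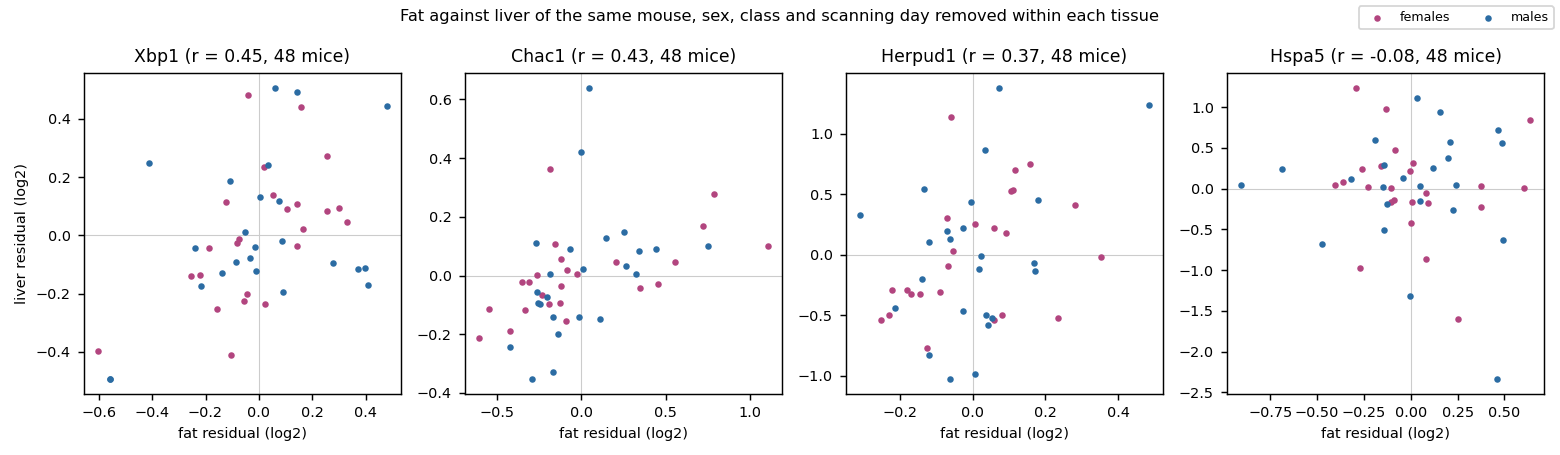
Fat against liver levels of the same 48 mice for Xbp1, Chac1, Herpud1 and Hspa5, as log2 residuals after sex, haplotype class and scanning day had been removed within each tissue. Each point is 1 mouse, coloured by sex, and each panel has its own axes. The r is 0.45 for Xbp1 and 0.43 for Chac1, against -0.085 for Hspa5.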

How the data were processed

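RNA of 48 fat and 48 liver samples was measured on Illumina arrays. The authors deposited probe intensity values per array without background correction or normalization. The deposited detection column holds a fraction, 1 minus the detection p-value, and was turned back. A second deposited matrix holds log2 values made with lumi, per the submitters' processing notes, whose settings no source used here states. It served as an alternative. Intensities were processed with limma 3.58.1 in R 4.3.3 (neqc, offset 16), within each tissue, or over 96 arrays for comparisons of tissues.

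Linear models (lmFit, eBayes with trend) had sex, haplotype class and scanning day as terms. Fat against liver had no day term. Adjusted p-values are Benjamini-Hochberg over all tested probes, 10217 in fat, 8504 in liver and 11718 over both. Correlations used 100000 two-sided permutations. Models were checked on simulated data. Mouse numbers pair fat and liver arrays of 1 animal; the pairing entered as an alternative, with a consensus correlation of -0.026 for the tissue comparison and 0.030 for the interactions.

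The members and lists were chosen with earlier results of these data known. Named were all probes of the members, per tissue the 10 named probes outside the members most like Hspa5 and the 5 most like Creld2 and Ddit3, and up to 4 called genes per list with the largest moderated statistic. The probe with the highest mean stands for a gene. Of 46116 probes, 29534 had 1 gene symbol in the platform table, 11 had several and 16571 none, and 29476 matched the GRCm38.p6 table. Alternatives were the deposited values, no background correction, other detection filters, any probe of a gene, each scanning day left out, no day term, day as a random block and rank correlation. Leaving out 3 arrays per tissue, 2 array measures as covariates and the Creld2 alternatives were chosen after seeing the data.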

Additional observations from a re-analysis of the deposited data

Results flagged for a closer look

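The sex difference differed between the tissues for 5 genes in the direct test of the interaction in limma. Given as female minus male in fat minus female minus male in liver on the log2 scale, the values were 1.80 for Creld2, 0.55 for Hyou1, 0.47 for Pdia4, 0.39 for Chac1 and 0.29 for Sel1l. For Creld2, Hyou1, Pdia4 and Sel1l the difference in liver passed and that in fat did not, and for Chac1 the difference in fat passed and that in liver did not. The calls of Sel1l and Chac1 were less stable. Sel1l did not pass without scanning day 2, 4, 5, 6 or 7, and Chac1 did not pass without day 8. Neither passed without the filter on detection. No cause was tested.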

How the results depend on the processing

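Over 1854 values recomputed under the alternatives, 34 changed sign, and 2 of these belonged to a called gene. They were Xbp1 in fat against liver, -0.0018 with the deposited values, and Pdia4 with Hspa5 in liver, an r of -0.32 without day in the model. The 1854 values include counts of genes and adjusted p-values, which cannot change sign, so the 34 are not a share of them. The cause of the changes below was not tested. The counts in the class tests, the tissue and class test and the sex and class test of fat were 0 under all alternatives run. Counts of genes called moved by over 1.5 times as follows. For sex in fat, 1 gene was called, against 0 without the filter on detection, 2 without the 3 least correlated arrays and 0 with the median raw signal as a covariate, and 0 to 1 with a scanning day left out. Without day in the model, 2 genes passed the sex and class interaction in liver, where 0 had. Without the filter, 3 genes passed the tissue and sex interaction, where 5 had. With Hspa5 as the covariate, 3 genes were called in fat and 1 in liver without day in the model, and 2 in liver with the median raw signal, with ranges of 0 to 1 in fat and 2 to 5 in liver when a day was left out. With Creld2 in fat 1 was called with ranks, and 1 to 2 with a day left out.

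The other sign changes were of values that did not pass. With a scanning day left out, sex in fat was -0.23 to 0.0037 for Hspa5, -0.024 to 0.11 for Sel1l and -0.031 to 0.091 for Pdia4, the widest class difference of Sel1l in liver was -0.029 to 0.22, and the tissue and sex interaction of Ddit3 was -0.030 to 0.074. The r with Hspa5 in fat was then -0.084 to 0.19 for Sel1l and -0.12 to 0.12 for Herpud1, and in liver -0.18 to 0.036 for Chac1 and -0.36 to 0.16 for Xbp1. The r with Creld2 was -0.027 to 0.12 for Ddit3 and -0.016 to 0.39 for Xbp1 in fat, and -0.0020 to 0.19 for Chac1 in liver. Without day in the model, sex in fat was -0.018 for Dnajb9 and 0.023 for Herpud1, and sex in liver was -0.0048 for Herpud1. The r with Hspa5 was then -0.18 for Creld2, -0.32 for Herpud1 and 0.10 for Sel1l in fat, and -0.094 for Herpud1 and 0.20 for Chac1 in liver. With ranks the r of Sel1l with Hspa5 in fat was 0.12. Fat against liver for Chac1 was -0.042 with the deposited values and -0.013 with the number of detected probes as a covariate. That covariate gave an r with Hspa5 of -0.015 for Herpud1 and 0.0021 for Sel1l in fat and 0.088 for Xbp1 in liver. The median raw signal as a covariate gave 0.15 for Xbp1 in liver. Without the 3 least correlated arrays that r was 0.051, and the tissue and sex interaction of Ddit3 was -0.013.

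With the mouse as a replicate block, 9 genes passed the tissue comparison and 5 the tissue and sex interaction, the same counts as without it, and it changed no call. Detection limits Ddit3 and Chac1 in liver and the second probes of Sel1l and Dnajb9. It also limits fat, where Hyou1 was detected on 40 and Herpud1 on 39 of 48 arrays. Their differences and correlations in fat rest on values near background. The number of arrays limits the precision of every value.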
